A study of Homo sapiens with 4 samples.

Results

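Small nucleolar RNA host genes were compared between 2-D grown and 3-D grown Elf1 cells, an embryonic stem cell (ESC) line derived in the naïve state from a human embryo. The 9 genes GAS5, SNHG1, SNHG3, SNHG5, SNHG6, SNHG8, SNHG12, SNHG15 and SNHG16 were chosen by name, as spliced host lncRNAs, from the 60564 gene identifiers counted. In 2-D, Elf1 cells adhered to Matrigel on plastic. In 3-D, single cells were enclosed in PEG-8-SH/PEG-8-Acr hydrogels and kept there for 21 days without passage. The line had been maintained on mouse embryonic feeders and was moved to feeder-free Matrigel before it was enclosed, and the culture medium contained FGF2, human LIF, CHIR99021, which inhibits GSK3, and a MEK inhibitor. All libraries came from this 1 line, no genetic change is named, and each condition had 2 biological replicates, so 4 libraries were compared. The age of the 2-D cultures was not given in the sources used here.

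Small nucleolar RNAs (snoRNAs) guide the chemical modification and cleavage of ribosomal RNA, and most human snoRNAs are released from introns after splicing. The box C/D class guides 2′-O-methylation with fibrillarin, and the box H/ACA class guides pseudouridylation with dyskerin. Their hosts are either protein-coding genes, many of them for ribosomal proteins, or lncRNA genes such as GAS5 and the SNHG genes. The spliced lncRNA that is left over is often short-lived, because ribosomes that meet early stop codons expose it to nonsense-mediated decay (NMD). GAS5 was named for its accumulation in growth-arrested cells, and many hosts start transcription in a 5′ terminal oligopyrimidine (TOP) tract, which in mRNAs links translation to mTOR and LARP1.

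The start sites are shown first because that TOP tract is the sequence feature for which hosts are known. The RefSeq promoter table (GRCh38.p14) held 7 of the 9 genes, all but SNHG6 and SNHG15. Each line below gives the transcribed strand, 5′ to 3′, with 10 bases before the annotated start and 25 bases from it on. Capitals mark the longest run of C and T that begins with C within 5 bases of that start.
SNHG5, chr6:85678709-85678743, minus strand: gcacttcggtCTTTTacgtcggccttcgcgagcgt
SNHG8, chr4:118278752-118278786, plus strand: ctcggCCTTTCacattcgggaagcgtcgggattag
SNHG12, chr1:28581849-28581883, minus strand: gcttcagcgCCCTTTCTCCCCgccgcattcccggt
SNHG16, chr17:76557754-76557788, plus strand: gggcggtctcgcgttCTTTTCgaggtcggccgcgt
SNHG3, chr1:28505933-28505967, plus strand: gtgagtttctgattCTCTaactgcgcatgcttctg
SNHG1, chr11:62855861-62855895, minus strand: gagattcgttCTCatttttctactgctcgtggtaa
GAS5, chr1:173869021-173869055, minus strand: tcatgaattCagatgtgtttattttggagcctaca

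A run of at least 5 such bases was present in 4 of the 7 genes, namely SNHG5, SNHG8, SNHG12 and SNHG16. The same search found one in 21.1% of the 35116 promoters in the table. The run began at the annotated start in SNHG5 and 1 base before it in SNHG12. It began 5 bases before the start in SNHG8 and 5 bases after it in SNHG16. The RefSeq starts of GAS5 at position 173869045 and of SNHG3 at position 28505943 lie outside their GENCODE genes. The GENCODE gene of GAS5 ends at 173868882, and that of SNHG3 starts at 28505980. The letters shown for GAS5 and SNHG3 need not be those of the transcript start used in these cells. A match of letters is a description, and neither the start sites nor translation were measured here.

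The 2-D libraries held between 30114220 and 33833778 counts, and the 3-D libraries between 18276147 and 21154409. Levels are given as CPM, counts scaled to a common library size with edgeR's TMM normalization, and differences as log2 fold changes of 3-D over 2-D, so that a negative value is a lower level in 3-D. A gene was called when edgeR's quasi-likelihood test gave a Benjamini-Hochberg adjusted p below 0.05 over the 22555 genes that passed a filter on low counts. Core pluripotency markers were present in every library, with LIN28A at 1721 to 1812 CPM and NANOG at 197 to 216 CPM. Of the 7 naive markers listed, DPPA5 and KLF17, which define that state, were near 0, with 0 to 4 counts and 0.465 to 1.07 CPM, while DPPA3, DNMT3L, TFCP2L1, KLF4 and SUSD2 lay between 5.75 and 23.8 CPM. Of 11 germ layer and trophoblast markers 8 were tested and 0 were called, by edgeR or by DESeq2. An unadjusted edgeR p below 0.05 was reached by 2. Only 1 of the 8 had a log2 fold change below 0, and their median was 0.205, beside -0.0001 for all genes. GATA6 came closest to the threshold (edgeR adjusted p = 0.0516). It was at 0.842 and 1.10 CPM in 2-D and at 2.34 and 1.51 CPM in 3-D, with 27 to 48 counts per library. Mitochondrially encoded genes held 5.10% and 5.30% of the counts in 2-D and 8.33% and 8.50% in 3-D. Of 7 fibroblast markers 5 were tested, all but DCN and LUM. Of these 5, 3 were called higher in 3-D, namely THY1, COL1A1 and COL3A1, beside 4.54% of all genes tested. The summed level of the 5 fibroblast markers tested was 529 to 537 CPM in 2-D and 546 to 595 CPM in 3-D, and the defining markers DCN and LUM had 2 to 17 counts per library. The part of the mitochondrial share and of these marker levels in the results below was not tested. RNA came from whole cultures, so fewer cells with a transcript and less of it per cell cannot be told apart.

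All 9 host genes passed the filter on low counts, and all 9 estimates were below 0, as were 50.0% of those of all genes. SNHG5, GAS5, SNHG3 and SNHG8 were lower in 3-D grown cells, by 14.3% to 26.8% of the 2-D level, and 0 of the 9 were called higher. That is 44.4% called lower, beside 3.36% of all genes tested, of which 7.90% were called in either direction. The median log2 fold change was -0.19 over the 9 genes and -0.0001 over all genes. SNHG15 and SNHG16 had lower levels in both 3-D libraries but did not pass the threshold. SNHG1, SNHG6 and SNHG12 had almost the same mean level in both conditions. The libraries of the conditions did not overlap for 6 of the 9 genes, each lower in 3-D, as for 25.1% of all genes tested in that direction and 50.5% in either.

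**Figure D1:**
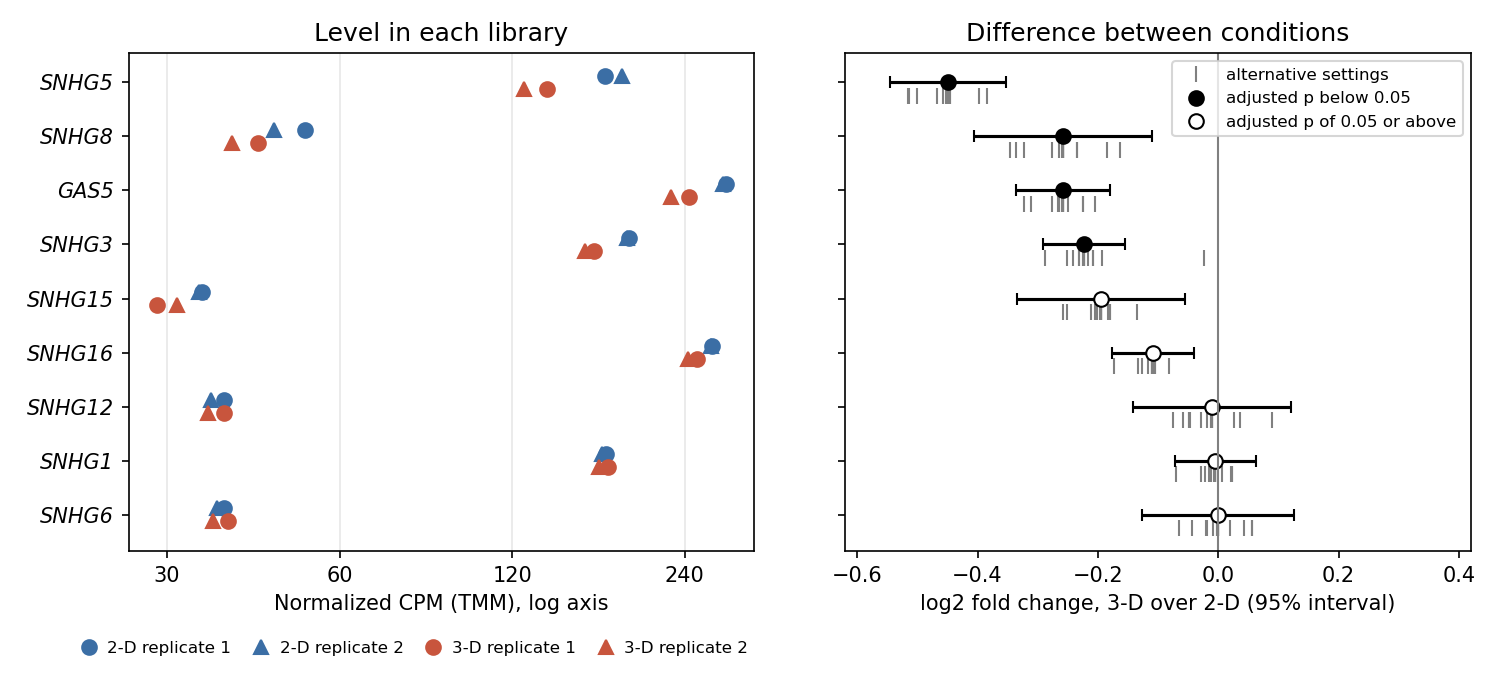
Levels of the 9 host genes in each library and their differences between conditions. Left, TMM-normalized CPM on a log axis, with circles for replicate 1 and triangles for replicate 2, blue for 2-D and red for 3-D. Right, log2 fold change of 3-D over 2-D with its 95% interval, filled where the adjusted p was below 0.05, and grey ticks for the alternative settings. The 4 filled points lie between -0.45 and -0.22, and the intervals of SNHG12, SNHG1 and SNHG6 span 0.

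SNHG5 (ENSG00000203875, chr6:85650491-85678932, minus strand), host of the box C/D snoRNAs SNORD50A and SNORD50B, differed most of the 9. Its level was 173.9 and 186.8 CPM in 2-D and 137.9 and 126.0 CPM in 3-D. The highest 3-D library lay well below the lowest 2-D library. Its mean fell from 180.3 ± 9.09 to 131.9 ± 8.47 CPM (SD, n = 2), a log2 fold change of -0.45 with a standard error (SE) of 0.04 and an edgeR adjusted p of 8.12e-05. SNHG5 passed the threshold under each of the 16 alternative settings, with log2 fold changes from -0.52 to -0.38.

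GAS5 (ENSG00000234741, chr1:173858559-173868882, minus strand) hosts a row of box C/D snoRNAs and encodes a lncRNA also known for binding the glucocorticoid receptor. Its level was 283.2 and 279.7 CPM in 2-D and 243.9 and 226.7 CPM in 3-D, with no overlap. Its mean fell from 281.4 ± 2.46 to 235.3 ± 12.1 CPM (SD, n = 2), a log2 fold change of -0.26 (SE 0.04, edgeR adjusted p = 0.00100). The call held under the 16 alternatives, at -0.32 to -0.21.

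SNHG3 (ENSG00000242125, chr1:28505980-28510892, plus strand) hosts SNORA73A and SNORA73B, the U17 RNAs, which take part in the cleavage of the ribosomal RNA precursor. Its level was 192.1 and 190.1 CPM in 2-D and 166.9 and 160.5 CPM in 3-D. Both 3-D libraries were below both 2-D libraries, and the mean fell from 191.1 ± 1.42 to 163.7 ± 4.53 CPM (SD, n = 2). The log2 fold change was -0.22 (SE 0.03, edgeR adjusted p = 0.00102). This call was lost when the counts of SNORA73B, which lies within an intron of SNHG3, were added to those of the host (-0.02, edgeR adjusted p = 0.923).

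SNHG8 (ENSG00000269893, chr4:118278703-118285316, plus strand), host of the H/ACA snoRNA SNORA24, was the least certain of the 4 calls. Its level was 52.3 and 46.05 CPM in 2-D and 43.3 and 38.9 CPM in 3-D, so that the gap between conditions was smaller than the gap within either. The mean fell from 49.2 ± 4.42 to 41.1 ± 3.05 CPM (SD, n = 2), with a log2 fold change of -0.26 (SE 0.07, edgeR adjusted p = 0.0370). The call was lost with DESeq2 (adjusted p = 0.0609). It was also lost without 2-D replicate 1, at -0.16 (edgeR adjusted p = 0.304), and without 3-D replicate 2, at -0.18 (edgeR adjusted p = 0.0726).

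SNHG16 (ENSG00000163597, chr17:76557727-76670985, plus strand), host of the SNORD1 group of box C/D snoRNAs, had one of the highest levels. It was at 267.4 and 266.8 CPM in 2-D and at 252.1 and 243.3 CPM in 3-D, with no overlap. The log2 fold change of -0.11 (SE 0.03) had an edgeR adjusted p of 0.0524 and a 95% interval from -0.18 to -0.04. SNHG16 passed the threshold in 9 of the 16 alternative settings.

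SNHG15 (ENSG00000232956, chr7:44983019-44986961, minus strand), host of the H/ACA snoRNA SNORA9, had 34.6 and 34.0 CPM in 2-D and 28.8 and 31.2 CPM in 3-D. The libraries did not overlap, but the 3-D libraries lay further apart than the 2-D libraries. Its log2 fold change was -0.19 (SE 0.06, 95% interval -0.33 to -0.05, edgeR adjusted p = 0.0914). The threshold was passed in 3 of the 16 alternatives.

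SNHG1 (ENSG00000255717, chr11:62851978-62855953, minus strand) hosts a row of box C/D snoRNAs from SNORD22 to SNORD30. Of the 9 genes it held the most snoRNA genes that are in the count files, as placed by GENCODE release 44. Its level was 175.1 and 172.4 CPM in 2-D and 176.0 and 170.2 CPM in 3-D, so the 3-D libraries enclosed the 2-D libraries. The log2 fold change was -0.005 with a 95% interval from -0.07 to 0.06 (edgeR adjusted p = 0.953).

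SNHG12 (ENSG00000197989, chr1:28578538-28583132, minus strand), which hosts the box C/D snoRNA SNORD99 and several H/ACA snoRNAs, was at 37.7 and 35.8 CPM in 2-D and 37.7 and 35.3 CPM in 3-D. Its libraries overlapped, with a log2 fold change of -0.01, a 95% interval from -0.14 to 0.12 and an edgeR adjusted p of 0.947. SNHG6 (ENSG00000245910, chr8:66920561-66926398, minus strand), host of the box C/D snoRNA SNORD87, was at 37.7 and 36.7 CPM in 2-D and 38.3 and 36.1 CPM in 3-D. Its 3-D libraries also enclosed the 2-D libraries, with a log2 fold change of -0.0006, an interval from -0.13 to 0.13 and an edgeR adjusted p of 0.997. The intervals of SNHG12 and SNHG6 reach as far as a change of the size seen for SNHG16, so a change of that size was not excluded for them. The interval of SNHG1 ends at -0.07, short of the estimate for each of the 4 genes called.

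Together the 9 genes held 0.1276% and 0.1277% of all 2-D counts and 0.1093% and 0.1048% of all 3-D counts. Their summed level was 1254 and 1248 CPM in 2-D and 1125 and 1068 CPM in 3-D. Counting error alone was between 1.51% and 4.23% of a gene's count in 3-D replicate 2, the shallowest library, from SNHG16 with 9208, 8220, 5181 and 4361 counts in the 4 libraries up to SNHG15 with 1191, 1049, 592 and 560 counts.

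A ratio of counts to SNHG1 within each library needs no normalization between libraries. SNHG1 was chosen for this after its values were seen, so the ratios are a description. GAS5 had 1.62 and 1.62 counts per SNHG1 count in 2-D and 1.39 and 1.33 in 3-D. SNHG5 had 0.993 and 1.08 counts per SNHG1 count in 2-D and 0.784 and 0.740 in 3-D. SNHG3 passed from 1.10 and 1.10 to 0.948 and 0.943, so SNHG3 outnumbered SNHG1 in both 2-D libraries and not in the 3-D libraries. The ratios of SNHG6 were 0.216 and 0.213 in 2-D and 0.218 and 0.212 in 3-D, and those of SNHG12 were 0.215 and 0.208 against 0.214 and 0.207, so both overlapped. The ratios of SNHG8, SNHG15 and SNHG16 did not overlap and were lower in 3-D.

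**Figure D2:**
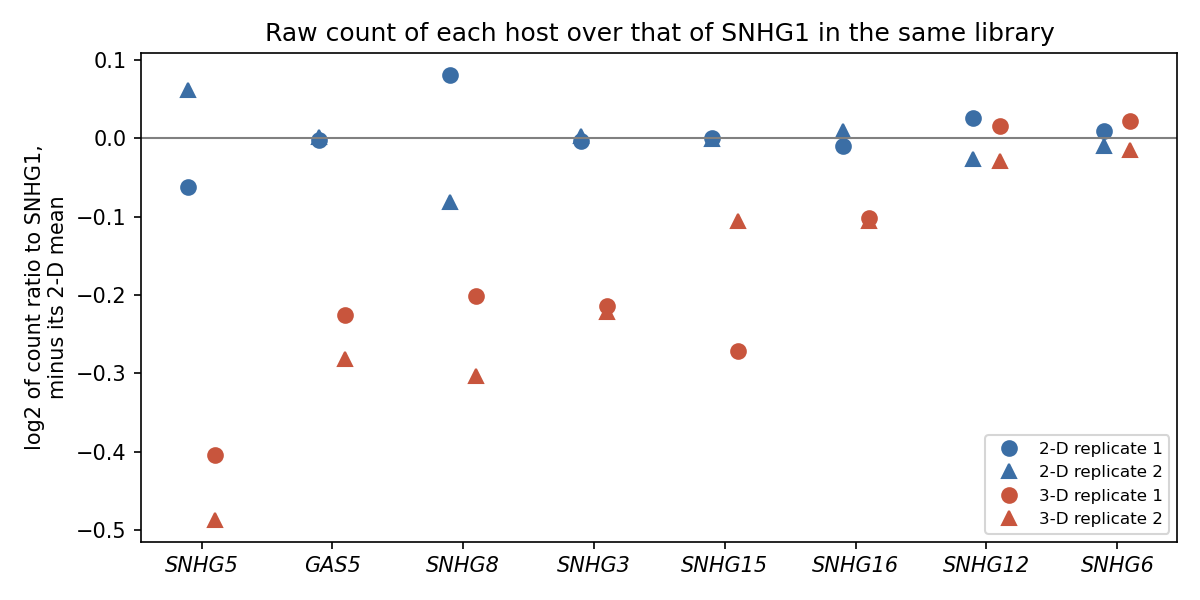
Counts of each other host gene per count of SNHG1 in the same library, with circles for replicate 1 and triangles for replicate 2. The ratios of GAS5, SNHG3 and SNHG5 were lower in both 3-D libraries than in either 2-D library, while those of SNHG6 and SNHG12 overlapped between conditions.

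Levels of different genes were compared per kilobase (kb) of merged exons. In 2-D, GAS5 had the highest level with 57.1 ± 0.498 CPM per kb (SD, n = 2). It was followed by SNHG3 with 46.7 ± 0.348, SNHG16 with 46.2 ± 0.0766 and SNHG1 with 43.7 ± 0.472 CPM per kb. SNHG6 and SNHG5, with 14.7 and 14.3 CPM per kb, overlapped, as did SNHG15 and SNHG12 with 8.70 and 8.62 CPM per kb, and SNHG8 was lowest with 7.43 CPM per kb. In 3-D, the levels per kb were 47.7 for GAS5, 43.5 for SNHG1, 42.9 for SNHG16 and 40.0 for SNHG3, and SNHG1 and SNHG16 overlapped. By this length SNHG3 stood above SNHG16 and SNHG1 in 2-D and below both in 3-D. The remaining levels per kb in 3-D were 14.7 for SNHG6, 10.5 for SNHG5, 8.55 for SNHG12, 7.61 for SNHG15 and 6.21 for SNHG8. The order depends on the length used. In GENCODE release 44 the merged exons of SNHG16 hold 5776 bases and its representative transcript 498, beside 4932 and 768 bases for GAS5. Per kb of 1 representative transcript, SNHG16 came first in 2-D with 536 CPM per kb, ahead of GAS5 with 366 CPM per kb. By that length SNHG3 lay below SNHG1 in both conditions, with 86.8 against 149.5 CPM per kb in 2-D and 74.4 against 149.0 CPM per kb in 3-D.

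The snoRNAs themselves could be followed only in part. Of the snoRNA gene identifiers in the count files, GENCODE release 44 places 21 within 8 of the hosts and none within GAS5. RefSeq lists 11 snoRNAs within GAS5, among them SNORD44, SNORD47 and SNORD74 to SNORD81. Of the 21 genes, 18 lie wholly inside an annotated exon of their host, and all 18 were at 0 in all 4 libraries. A count of 0 allows up to 3 counts, which is 0.0887 to 0.164 CPM of the total counts, and covers counting error only. The other 3, SNORA73B, SNORD99 and SNORD1B, lie outside every exon of their host, and all 3 were counted. A zero in the first set therefore went with the annotation and was not read as absence of the snoRNA. The overlap was computed with GENCODE release 44, whereas the authors counted on release 30. Reads over SNORA73B, SNORD99 and SNORD1B may come from the snoRNA or from unspliced host RNA, and the counts cannot tell these apart.

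The 3 snoRNAs that carry the counts are shown as they stand in hg38. Capitals mark the C box TGATGA and the D box CTGA of box C/D snoRNAs or the ACA of box H/ACA snoRNAs, where a search for these letters on the transcribed strand found them.
SNORA73B in SNHG3, chr1:28508559-28508762, plus strand: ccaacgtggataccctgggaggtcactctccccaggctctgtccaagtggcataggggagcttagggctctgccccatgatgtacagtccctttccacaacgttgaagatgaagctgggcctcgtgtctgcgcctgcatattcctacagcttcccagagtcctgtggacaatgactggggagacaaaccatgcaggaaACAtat
SNORD99 in SNHG12, chr1:28578749-28578822, minus strand: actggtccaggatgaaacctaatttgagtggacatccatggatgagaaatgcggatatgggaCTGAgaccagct
SNORD1B in SNHG16, chr17:76561109-76561192, plus strand: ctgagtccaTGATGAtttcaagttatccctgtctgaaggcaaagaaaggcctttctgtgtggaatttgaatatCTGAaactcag

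SNORA73B had 2929 and 2884 counts in 2-D and 3107 and 1298 counts in 3-D, or 85.1 and 93.6 CPM against 151.2 and 72.4 CPM. The 3-D libraries lay on either side of the 2-D libraries. Its log2 fold change was 0.33 (SE 0.21, edgeR adjusted p = 0.404), and it turned to -0.30 without 3-D replicate 1 and was 0.76 without 3-D replicate 2. For every 100 counts of SNHG3 there were 44.3 and 49.2 counts of SNORA73B in 2-D and 90.6 and 45.1 in 3-D. SNHG3 itself differed little between the 3-D libraries, so the host and its snoRNA did not vary together between them. SNHG3 and SNORA73B summed to 277.2 and 283.7 CPM in 2-D and to 318.1 and 232.9 CPM in 3-D.

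SNORD99 had 149 and 95 counts in 2-D and 183 and 75 counts in 3-D, or 4.33 and 3.08 CPM against 8.90 and 4.18 CPM. Again 3-D replicate 1 was the highest library, and the 3-D replicate 2 value lay between the 2-D values. The log2 fold change was 0.83 (SE 0.27, edgeR adjusted p = 0.0835), and it was 0.17 without 3-D replicate 1. For every 100 counts of SNHG12 there were 11.5 and 8.61 counts of SNORD99 in 2-D and 23.6 and 11.9 in 3-D. SNORD1B had 21 and 15 counts in 2-D and 5 and 8 counts in 3-D, too few to compare (log2 fold change -0.70, SE 0.46, edgeR adjusted p = 0.442). Of the 3 snoRNAs 0 were called by edgeR, and 1 had an unadjusted p below 0.05. DESeq2 did not call SNORA73B (DESeq2 adjusted p = 0.810) and gave no adjusted p for SNORD99 and SNORD1B.

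**Figure D3:**
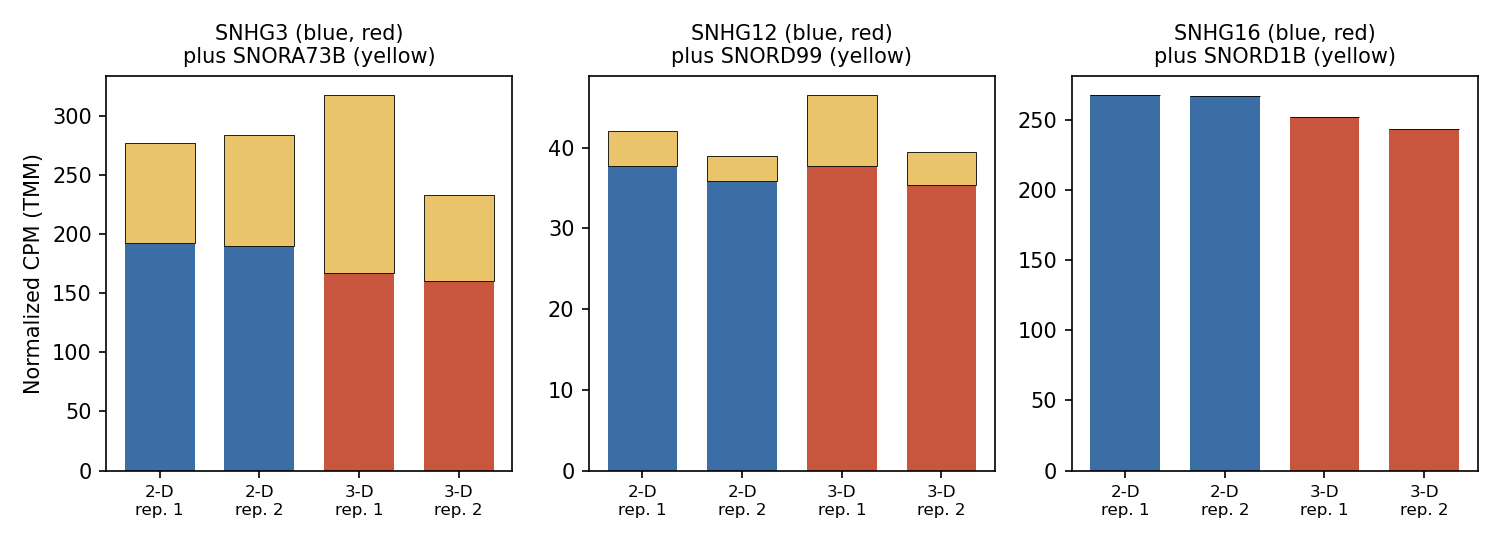
Levels of the 3 host genes with a counted intronic snoRNA and of that snoRNA in each library, in TMM-normalized CPM. SNORA73B stood at 151.2 CPM in 3-D replicate 1 and at 72.4 CPM in 3-D replicate 2, with SNHG3 between 160.5 and 166.9 CPM in both, and the level of SNORD1B is too low to be seen beside SNHG16.

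Some of the host genes share exon bases with a neighbouring gene, and the strand setting of the counting was not given in the sources used here. Reads there may have been divided or lost. SNHG1 and SNHG15 share no exon base with another gene, and SNHG12 shares 0.188% of its exon bases. Of the exon bases of SNHG6, 58.9% lie opposite MCMDC2, whose log2 fold change was -0.47 (edgeR adjusted p = 0.0140). SNHG8 lies opposite PRSS12 over 37.6% of its exon bases, and PRSS12 had a log2 fold change of 0.05 (edgeR adjusted p = 0.778). SNHG3 shares 5.92% of its exon bases with RCC1 on the same strand, and RCC1, at 96.5 and 92.9 CPM in 2-D and 108.9 and 98.6 CPM in 3-D, did not pass the threshold. Of the 7 neighbours tested, MCMDC2 was called lower, which is 14.3% beside 3.36% of all genes tested. An unadjusted edgeR p below 0.05 was reached by 5 of the 7, beside 4808 of all 22555 genes tested. The libraries did not overlap for 5, each lower in 3-D, and for 2, each higher, beside 25.1% and 25.4% of all genes. GAS5-AS1, opposite GAS5, was at -0.26 (edgeR adjusted p = 0.0687). No copy of a transcript of the 9 genes was found elsewhere in hg38 with at least 98% identity over at least 80% of its length.

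Other lncRNA hosts of snoRNAs were listed in the same way. Of 18 such genes 17 were tested, 6 were called lower in 3-D and 0 higher, which is 35.3% lower beside 3.36% of all genes, and their median log2 fold change was -0.14. SNHG25 fell most, from 4.36 and 3.93 CPM to 2.24 and 1.28 CPM (log2 fold change -1.21, SE 0.22, edgeR adjusted p = 0.00461). SNHG19 fell from 15.7 and 13.7 to 9.15 and 10.4 CPM (-0.59, SE 0.10, edgeR adjusted p = 0.00397). SNHG30 fell from 10.6 and 10.7 to 8.66 and 6.92 CPM (-0.45, SE 0.12, edgeR adjusted p = 0.0320). These 3 genes had 23 to 542 counts per library, and the call of SNHG30 was lost without 2-D replicate 2 (edgeR adjusted p = 0.0829) and without 3-D replicate 2 (-0.30, edgeR adjusted p = 0.0951). The other 3 called, ZFAS1, SNHG4 and SNHG14, had log2 fold changes of -0.18, -0.16 and -0.13 (edgeR adjusted p = 0.0133, 0.0141 and 0.0198) and are named to complete the count. DANCR, at 81.5 and 80.4 CPM in 2-D and 80.8 and 81.7 CPM in 3-D, showed no difference beyond its spread (log2 fold change 0.005, 95% interval -0.07 to 0.08), and was chosen after its values were seen. DESeq2 called 1 of the 17, gave no adjusted p for SNHG25, SNHG19 and SNHG30, and called 3 of the 9 genes above.

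Protein-coding hosts of snoRNAs were called in both directions. Of 167 tested, 17 were called higher and 22 lower, beside 4.54% and 3.36% of all genes, and their median log2 fold change was -0.0003. Among the 28 that encode ribosomal proteins, 3 were called higher and 10 lower (median -0.08), and among the 139 others 14 were called higher and 12 lower (median 0.006). RPL39 fell by 0.61 (SE 0.04, edgeR adjusted p = 5.18e-06), RPS12 by 0.53 (SE 0.06, edgeR adjusted p = 1.81e-04) and RPLP2 by 0.37 (SE 0.03, edgeR adjusted p = 2.19e-05) on the log2 scale. UBAP2L rose by 0.35 (SE 0.03, edgeR adjusted p = 7.05e-05), RPS2 by 0.29 (SE 0.03, edgeR adjusted p = 1.35e-04) and UBAP2 by 0.24 (SE 0.03, edgeR adjusted p = 4.98e-04). The transcripts of RPS2 and RPL39 have 2 and 1 near-identical copies in the genome, so their counts are uncertain. Without single libraries, RPL39 ranged from -0.69 to -0.53 and UBAP2L from 0.31 to 0.38 in log2 fold change. The number of protein-coding hosts called changed with the library left out, as did that of all genes.

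**Figure D4:**
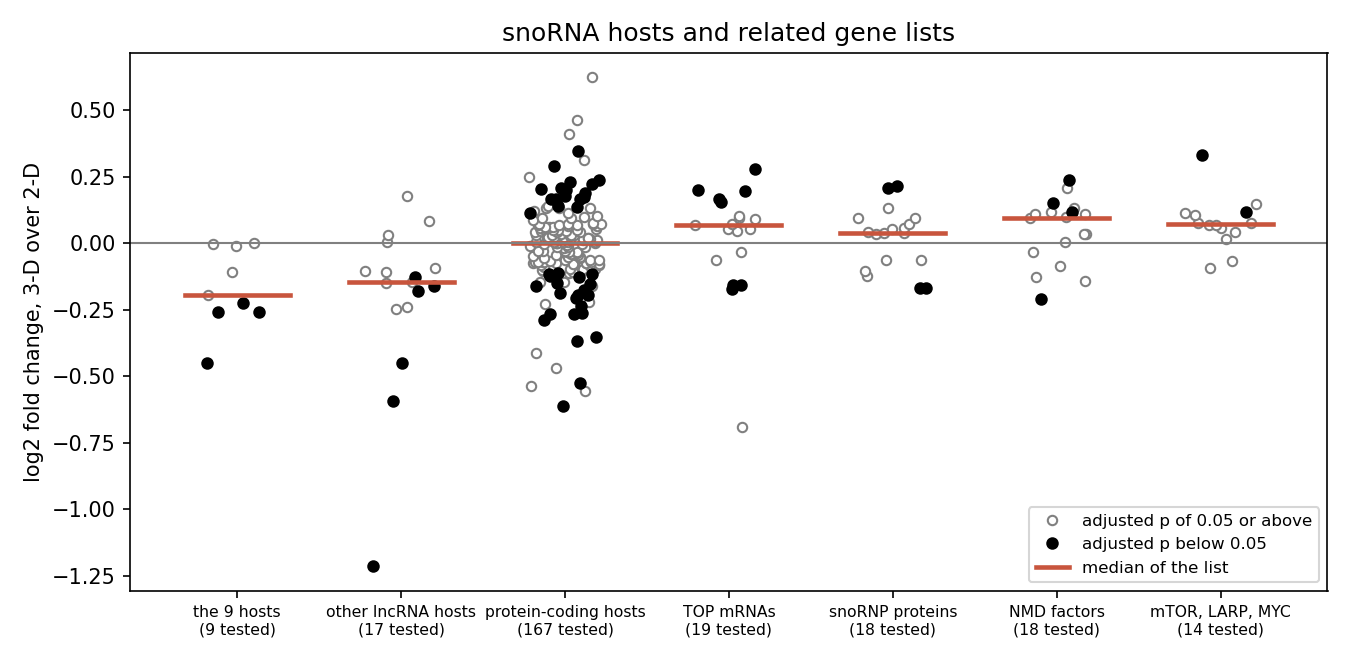
Log2 fold change of 3-D over 2-D for every tested gene of each list, 1 point per gene, with the median of each list. The medians were -0.19 for the 9 host genes, -0.14 for the other lncRNA hosts and -0.0003 for the protein-coding hosts, beside -0.0001 for all genes tested.

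NMD is the pathway known to degrade several spliced host transcripts. Of 18 NMD factors tested, 3 were called higher (16.7%, beside 4.54% of all genes tested) and 1 lower (5.56%, beside 3.36%), and the median log2 fold change was 0.10. Of the exon junction complex, CASC3 rose by 0.15 (SE 0.03, edgeR adjusted p = 0.00690) and RBM8A by 0.12 (SE 0.03, edgeR adjusted p = 0.0348), while EIF4A3 fell by 0.21 (SE 0.03, edgeR adjusted p = 0.00136). RBM8A has a near-identical stretch of 2807 bases elsewhere in the genome, and its level is uncertain for that reason. Without single libraries, CASC3 ranged from 0.15 to 0.16 and RBM8A from 0.10 to 0.13, and neither kept its call in every such fit. The number of NMD factors called changed with the library left out, as did that of all genes.

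Of 19 proteins that bind or assemble snoRNAs, 18 were tested, 2 were called higher and 2 lower (11.1% each, beside 4.54% and 3.36% of all genes tested), and the median was 0.04. RUVBL1, an assembly ATPase, rose by 0.21 (SE 0.03, edgeR adjusted p = 7.79e-04), and the box C/D core protein NOP58 rose by 0.21 (SE 0.04, edgeR adjusted p = 0.0133). Fibrillarin (FBL), the methyltransferase of the same particle, fell by 0.17 (SE 0.04, edgeR adjusted p = 0.0195), and SNU13, which binds the box C/D motif, fell by 0.17 (SE 0.03, edgeR adjusted p = 0.00872). Members of 1 particle were thus called in both directions. NOP58 was at 0.12 without 3-D replicate 1, and FBL at -0.11 without 3-D replicate 2. SNU13 ranged from -0.19 to -0.15 without single libraries, and neither FBL nor SNU13 kept its call in every such fit. The number of these proteins called changed with the library left out, as did that of all genes.

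TOP mRNAs, mostly outside the RPL and RPS genes, were also called in both directions. Of 20 listed, 19 were tested, 5 were called higher (26.3%, beside 4.54% of all genes tested) and 3 lower (15.8%, beside 3.36%), with a median of 0.07. PABPC1, the cytoplasmic poly(A)-binding protein, rose by 0.28 (SE 0.03, edgeR adjusted p = 1.35e-04), the elongation factor EEF1A1 by 0.20 (SE 0.03, edgeR adjusted p = 0.00209) and HNRNPA1 by 0.20 (SE 0.03, edgeR adjusted p = 0.00149). FAU, which encodes a ribosomal protein fused to a ubiquitin-like protein, fell by 0.17 (SE 0.03, edgeR adjusted p = 0.00696). EIF3L, a subunit of an initiation factor, fell by 0.16 (SE 0.03, edgeR adjusted p = 0.00571). Without single libraries, FAU ranged from -0.21 to -0.14 and EIF3L from -0.17 to -0.14, and neither kept its call in every such fit. The number of TOP mRNAs called changed with the library left out, as did that of all genes. EEF1A1 and HNRNPA1 have near-identical stretches of 1747 and 713 bases elsewhere in the genome. Of 14 growth and TOP control genes, 2 were called, both higher (14.3%, beside 4.54%). EIF4EBP1, the mTOR-regulated inhibitor of cap-dependent translation, rose by 0.33 (SE 0.05, edgeR adjusted p = 0.00104). LARP1, which binds TOP tracts, rose by 0.12 (SE 0.03, edgeR adjusted p = 0.0304). LARP1 ranged from 0.11 to 0.13 without single libraries and did not keep its call in every such fit. The number of genes called in that list changed with the library left out, as did that of all genes. Of 11 proliferation genes, MKI67 rose by 0.27 and PLK1 by 0.25 (edgeR adjusted p = 3.63e-04 and 7.46e-04), which is 18.2% called higher beside 4.54% of all genes, with 0 called lower.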

How the data were processed

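Total RNA was depleted of ribosomal RNA and sequenced with paired ends. The authors trimmed reads with Trim Galore 0.6.3, mapped them to hg38 with HISAT2 2.1.0 and counted them on GENCODE release 30 with featureCounts 1.6.4, per the labels and methods. The strand setting and the treatment of reads with several positions were not given in the sources used here. The deposited counts were left as whole numbers, without normalization. The deposited normalized signal is the count divided by 1 DESeq2 size factor per library. The deposited table also holds the authors' log2 fold changes, test scores and p-values, which were not used.

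The count tables were tested in edgeR 4.0.16 under R 4.3.3 (filterByExpr, TMM, condition as the only term, quasi-likelihood test, Benjamini-Hochberg adjustment, 2 libraries per condition). SE is the size of the log2 fold change over the square root of F. An exact permutation of 2 against 2 libraries cannot go below 0.333, so no such test is given. Names, exons and positions come from GENCODE release 44, which matched 60295 of 60564 identifiers, and the 269 others held 0.122% of the counts. Replicates differed by more than sampling noise (chi-square over its degrees of freedom 2.51 in 2-D and 4.15 in 3-D) and were not merged. Alternatives used DESeq2 1.42.0, limma 3.58.1, edgeR's likelihood ratio test, other scalings and filters, offsets for length and GC content, a replicate block, host counts with the snoRNA added, and single libraries left out. Copies were sought with minimap2 2.31-r1302, and sequences read with pysam 0.24.0. The tests were tested on simulated data.

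The members and lists were chosen with earlier results of these data known. All 9 genes and every tested snoRNA are named, and in other lists up to 3 called genes per direction with the largest change and no overlap between conditions, some of which are not reported here. Further names are said to be chosen after their values were seen or complete a count, except the markers and the neighbours, which come from lists or position.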

Additional observations from a re-analysis of the deposited data

How the results depend on the processing

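SNHG5 and GAS5 kept their direction and side of the threshold under the 16 alternatives, and 3 to 6 of the 9 genes were called. For SNHG8 the call was lost with DESeq2 (-0.26, adjusted p = 0.0609), edgeR's likelihood ratio test (-0.26, 0.0719) and offsets for length and GC content (-0.23, 0.0637), and without single libraries it ranged from -0.35 to -0.16. SNHG3 lost its call with the snoRNA counts added (-0.0239, edgeR adjusted p = 0.923), which also turned SNHG12 to 0.09 and moved the median of the 9 genes to -0.11. SNHG16 passed the threshold with library size only (-0.17), library sizes from which histone, ribosomal protein and mitochondrial genes were left out (-0.13), no filter (-0.11), at least 10 counts in every library (-0.12), the offsets (-0.10) and the offsets with a replicate block (-0.10), and ranged from -0.1336 to -0.0817 without single libraries. SNHG15 passed with library size only (-0.26) and no filter (-0.20), and ranged from -0.25 to -0.13 without single libraries. With the offsets, SNHG1 turned to 0.0226 and SNHG6 to 0.0556, and with offsets and block to 0.0225 and 0.0552. Without single libraries SNHG1 ranged from -0.0289 to 0.0204, SNHG6 from -0.0439 to 0.0421, SNHG12 from -0.058 to 0.0355, and the median of the 9 from -0.21 to -0.13. Library size only moved that median to -0.26, gave 514 genes higher and 1879 lower of 22555, beside 1024 and 758, and shifted the median of all genes by -0.06. With library sizes that left out those 3 classes, the split was 799 and 908.

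Calls over all genes numbered 1782 with edgeR, 834 with DESeq2 and 1139 with edgeR's likelihood ratio test. They numbered 1703 with the offsets, 2215 with offsets and a replicate block, and 2486 of 42231 without a filter. DESeq2 called 1 of the other lncRNA hosts. The likelihood ratio test called 24 protein-coding hosts, 5 TOP mRNAs and 1 growth gene, and the library sizes without those classes 1 growth gene. Without a filter, 2 hosted snoRNAs and 7 snoRNP proteins were called, and with the offsets 1 hosted snoRNA. Offsets with a replicate block called 1 hosted snoRNA and 8 NMD factors. Leaving out single libraries gave 1 to 2 hosted snoRNAs, 2 to 9 NMD factors, 2 to 7 snoRNP proteins, 5 to 13 TOP mRNAs, 1 to 7 growth genes and 27 to 59 protein-coding hosts, with the lone library assumed to vary like the others. SNORA73B turned to -0.30 without 3-D replicate 1 and was 0.76 without 3-D replicate 2. For the 28 other named genes, 405 of 444 values stayed on the same side of the threshold, 28 (10 genes) fell short of it and 10 (2 genes) newly passed it. The cause of these changes was not tested.

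Same-numbered libraries did not deviate together (correlation -0.0079), so the replicate numbers were not taken as a pairing. With a replicate block 2167 genes were called, SNHG16 passed the threshold (-0.1088, edgeR adjusted p = 0.0439), and 1 hosted snoRNA was called. The lowest member count, 560 for SNHG15 in 3-D replicate 2, limits precision to a counting error of 4.23%.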

Other observations

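Zero counts of snoRNA genes followed the exon annotation beyond the 9 hosts. The files list 990 snoRNA and scaRNA genes. Of the 203 that lie wholly inside an exon of another gene on the same strand, 11 had at least 1 count in some library (5.42%). Of the 45 partly inside such an exon, 23 were counted (51.1%), and of the 742 outside such exons, 402 were counted (54.2%).

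The genes whose profile over the 4 libraries lay closest to the mean profile of the 9 hosts were TGFBR1, PHLDA1, LMBR1L, ICE2 and SCAMP5, out of 10202 candidates with a mean of at least 10 CPM. Their Euclidean distances in centred log2 CPM ran from 0.00373 for TGFBR1 to 0.0139 for SCAMP5. These genes were picked as the nearest, so their small distances follow from the choice. The 9 hosts, which were not picked by distance, lay between 0.0571 (SNHG3) and 0.302 (SNHG5) from that mean. TGFBR1, a TGF-β receptor, was at 125.2 and 122.3 CPM in 2-D and 112.5 and 107.4 CPM in 3-D.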
